A study of Caenorhabditis elegans with 78 samples.

Results

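The regions described here had H3K36me2 peaks of both replicates at each growth temperature in *C. elegans* carrying the *jmjd-5(zr1234)* allele. In wild-type (N2) animals they overlapped no region with peaks of both replicates at either temperature. Most of them still had a peak in 1 or more N2 libraries. The regions were chosen by their H3K36me2 peaks. A region was a stretch that held a peak of both replicate libraries of its group, and it was gained when it lay in *jmjd-5(zr1234)* at 20°C, overlapped no N2 region at 20°C, and overlapped a *jmjd-5(zr1234)* region at 25°C that was likewise absent from N2 at 25°C. By this rule 235 regions were gained, which was 2.16% of the 10862 *jmjd-5(zr1234)* regions at 20°C and a small part of the 12556 regions found in any group. H3K36me2 was immunoprecipitated from whole young adults of *jmjd-5(zr1234)* at 20°C, N2 at 20°C, *jmjd-5(zr1234)* at 25°C and N2 at 25°C, with 2 replicates in each of these 4 groups. Animals at 25°C had been kept there for 3 generations. H3K27me3 was measured in the same design, and H3K36me3 at 25°C only. The *zr1234* allele changes conserved amino acids of the JmjC domain by point mutation, so the mutant stands for 1 allele, and the peak lists hold nothing that checks the genotype. The lists held 10643 to 12961 H3K36me2 peaks in *jmjd-5(zr1234)* and 10704 to 12672 in N2, and 13136 to 13487 H3K36me3 peaks over both strains. H3K27me3 lists at 20°C held 19872 and 20203 peaks in *jmjd-5(zr1234)* and 19824 and 19336 in N2, and at 25°C they were longer in the mutant without overlap, with 19036 and 19549 peaks in *jmjd-5(zr1234)* and 17674 and 18171 in N2.

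Methylation of lysine 36 on histone H3 marks transcribed and germline-expressed genes. In worms, the enzymes MET-1 and MES-4 deposit it, and MES-4 carries H3K36 methylation through the germline mainly on the autosomes, while the X chromosome has little of it in germ cells. H3K27me3, made by the Polycomb-like MES-2/3/6 complex, marks repressed chromatin and tends to exclude H3K36 methylation. JmjC proteins include demethylases that remove methyl groups from histone lysines, and JMJD-5 has been linked to H3K36me2. Whole animals mix germline and somatic nuclei, so a peak present in few cells and a weak peak present in all of them cannot be told apart.

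Most gains at either temperature did not recur under the rule at the other. At 20°C, 1193 regions, 11.0% of the *jmjd-5(zr1234)* regions, had no N2 counterpart, and at 25°C there were 1208, or 13.0%. N2 regions without a *jmjd-5(zr1234)* counterpart were no fewer, with 1387 (12.3%) at 20°C and 1338 (14.2%) at 25°C. Of the gains at 20°C, 19.7% recurred at 25°C and form the 235 regions, and 19.5% of the gains at 25°C overlapped one of them. The rule applied the other way round, to N2 regions missing in *jmjd-5(zr1234)* at both temperatures, gave 207 regions, or 1.84% of the N2 regions at 20°C. These were 14.9% of the N2 regions without a *jmjd-5(zr1234)* counterpart at 20°C, beside the 19.7% of gains that recurred. Recurrent gains were thus of about the same number as recurrent N2-only regions. For comparison, another set was made of 7372 *jmjd-5(zr1234)* regions that overlapped an N2 region at both temperatures, called shared. Since the rule chose the gained regions by their H3K36me2 peaks, all H3K36me2 values below are descriptions without a test.

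The gained regions were weak peaks. Fold enrichment, the ratio of ChIP to control signal given for each peak, had a median of 3.4 and 3.42 in the *jmjd-5(zr1234)* libraries at 20°C (replicates 1 and 2) and of 3.53 and 3.58 at 25°C. The lowest value was 1.69 and the highest 7.09 over these 4 libraries. At shared regions the same libraries had medians of 4.92, 5.22, 4.42 and 4.70. Within its own list the median gained peak stood at percentile 26.9 of fold in both libraries at 20°C, and at percentiles 34.4 and 31.2 at 25°C. In terms of the −log10 p of the peak caller, where the lists start at 10, the weakest of the 4 *jmjd-5(zr1234)* peaks of a gained region had a median of 14.2, from 10.03 to 31.5. It was under 20 in 207 regions (88.1%), against 28.2% of shared regions, and under 11 in 36. The N2-only regions were as weak in their own libraries, with 91.8% under 20. Just outside the rule lay 224 gains at 20°C with a peak in only 1 of the *jmjd-5(zr1234)* libraries at 25°C and no N2 region, whose peak had a −log10 p from 10.0 to 30.7, with a median of 15.8. Another 169 gains at 20°C (14.2%) had a *jmjd-5(zr1234)* region at 25°C, but it overlapped an N2 region at 25°C. A further 505 gains at 20°C had no peak at 25°C in either *jmjd-5(zr1234)* library.

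Most gained regions had a peak in some but not all N2 libraries. Of the 235 gained regions, 192 (81.7%) carried a peak in at least 1 of the 4 N2 libraries. There were 98 regions with a peak in 1 N2 library, 92 in 2 libraries and 2 in 3 libraries, and 43 (18.3%) with none. Counts above 2 were largely excluded by the rule, which left out regions overlapping an N2 region with peaks of both replicates. An N2 peak was present at both temperatures in 94 regions, at 20°C only in 52 and at 25°C only in 46. The N2 peaks that were listed had a median fold of 3.58 over 86 peaks and 3.41 over 60 peaks at 20°C, and 3.58 over 79 peaks and 3.15 over 63 peaks at 25°C. The plot of fold by library shows folds of 1.69 to 7.09 in *jmjd-5(zr1234)* and of 2.01 to 5.92 in N2. These sets of values cannot be compared as levels, since the N2 values cover only the regions whose N2 peak reached the lists. The N2-only regions showed the mirrored picture, with a *jmjd-5(zr1234)* peak in at least 1 library in all but 43 of 207 (20.8%).

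**Figure D1:**
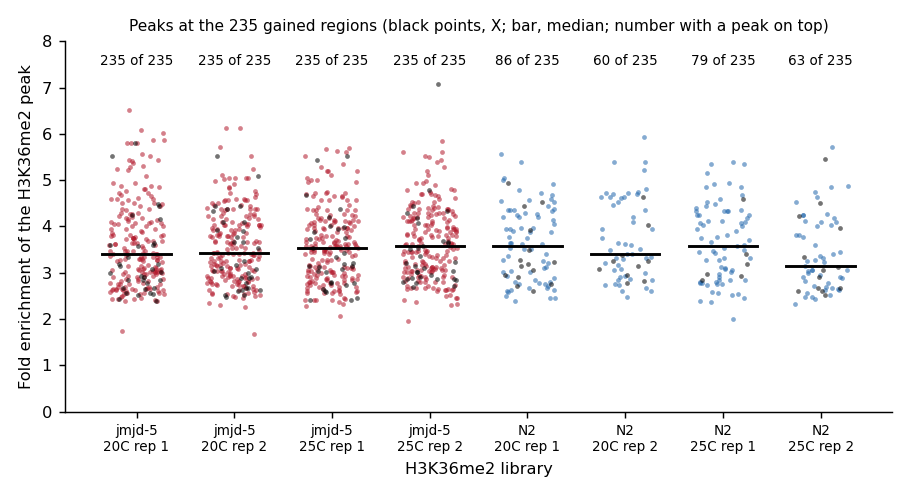
Fold enrichment (vertical axis, linear, ChIP over control) of the H3K36me2 peak at each gained region, 1 point a region, in the 4 *jmjd-5(zr1234)* libraries and the 4 N2 libraries; black points are on X and bars are medians. All 235 regions have a peak in each *jmjd-5(zr1234)* library by the rule, and between 60 and 86 have one in an N2 library; N2 folds are shown only where a peak was listed.

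**Figure D2:**
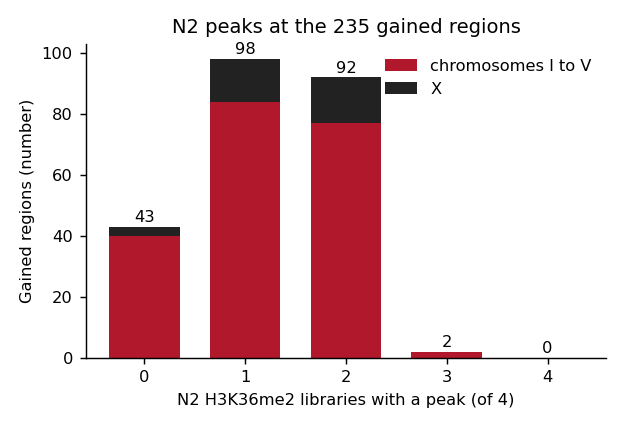
Number of gained regions (vertical axis) by how many of the 4 N2 H3K36me2 libraries have a peak there (horizontal axis), split into chromosomes I to V and X. The bars hold 43, 98, 92, 2 and 0 regions, so that most gained regions had a peak in 1 or 2 N2 libraries. Higher counts were largely excluded by the rule, which left out regions overlapping an N2 region with peaks of both replicates.

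Gained regions lay on X more often than shared or N2-only regions did. Of the 235, 32 lay on X, which was 13.6% (95% Wilson interval 9.81% to 18.6%, for counting error only). Of shared regions 108, or 1.47%, lay on X, and of N2-only regions 3, or 1.45% (0.494% to 4.17%). On chromosomes I to V the recurrent gains and the recurrent N2-only regions were nearly equal, 203 against 204. Their rates were 1.92% of *jmjd-5(zr1234)* regions and 1.85% of N2 regions. On X, 10.3% of the 310 *jmjd-5(zr1234)* regions were gained at both temperatures, and 1.40% of the 214 N2 regions were N2-only. Among the autosomes, chromosome III went the other way, with 30 gained (1.15% of its *jmjd-5(zr1234)* regions) and 67 N2-only (2.37% of its N2 regions). Regions gained at 20°C alone also had a raised share on X, 100 of 958 or 10.4%.

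The larger share on X was present on both sides of a −log10 p of 20. This cut does not make the sets alike in strength. The weakest −log10 p had a median of 14.2 over all gained and 27.6 over all shared regions. What part strength had in the share on X was not tested. Among regions whose weakest peak had a −log10 p under 20, 29 of 207 gained regions (14.0%) and 41 of 2082 shared regions (1.97%) were on X. Among the stronger ones, 3 of 28 gained (10.7%) and 67 of 5290 shared (1.27%) were. When every list was restricted to a −log10 p of 20 or more, 11 of 146 gained regions (7.53%) and 4 of 188 N2-only regions were on X. All but 3 of the 32 X regions had a peak in 1 or 2 N2 libraries, so the 43 regions with no N2 peak at all had 6.98% on X. Gained X regions were thus mostly weak sites that also had a peak in 1 (14 regions) or 2 (15 regions) N2 libraries. This was common on the autosomes too, where 163 of 203 gained regions (80.3%) had an N2 peak, against 29 of 32 (90.6%) on X. The share on X is a description, since the same H3K36me2 lists chose the regions.

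**Figure D3:**
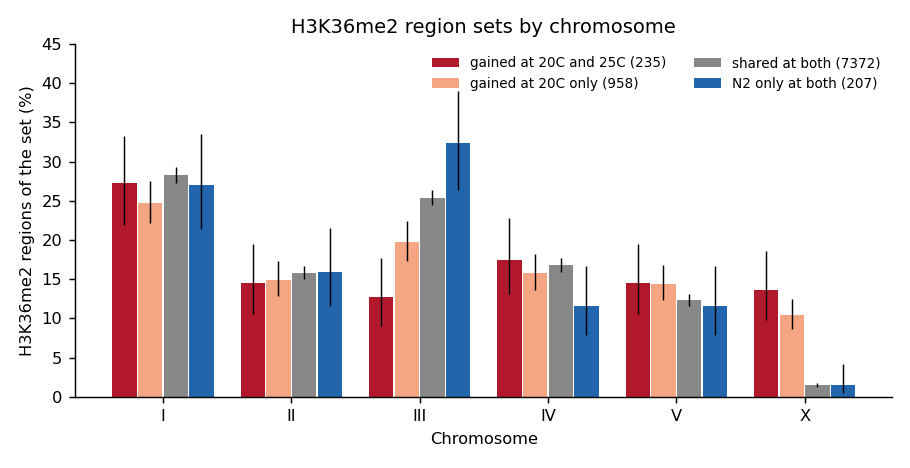
Percent of each set of H3K36me2 regions (vertical axis) that lies on each chromosome, for regions gained in *jmjd-5(zr1234)* at both temperatures, gained at 20°C only, shared, and N2-only; lines are 95% Wilson intervals for counting error only. On X the gained sets stand at 13.6% and 10.4%, and the shared and N2-only sets at 1.47% and 1.45%.

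Gained X regions had a lower median fold than gained autosomal ones in each *jmjd-5(zr1234)* library. On X the medians were 3.01 and 3.13 in the libraries of 20°C, and 3.17 and 3.18 in those of 25°C. On the autosomes they were 3.47 and 3.43 at 20°C, and 3.57 and 3.63 at 25°C. N2 peaks at X regions numbered 15 and 10 of 32 at 20°C and 6 and 13 at 25°C, with medians of 3.19, 3.2, 3.08 and 3.06. The X region with the highest lowest-fold, near the left end of the chromosome at 52266 to 52537 (ce10), had *jmjd-5(zr1234)* folds of 5.52 and 5.10 at 20°C, and of 5.43 and 7.09 at 25°C. In N2 it had a peak of 3.50 in replicate 1 at 20°C and of 5.46 in replicate 2 at 25°C, and none in the other libraries. With the chromosome cut into 3 equal parts, 14 of the X regions lay in the left, 6 in the middle and 12 in the right part, whereas 79 of the 108 shared X regions lay in the left part. The 100 X regions gained at 20°C only were spread alike, with 44, 18 and 38 in these parts.

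Gained regions were narrow and often close to an N2 region. Their median width was 297 bp, from 208 to 1903 bp, against 526 bp for shared regions and 340 bp for N2-only regions. On X the median was 345 bp and on the autosomes 288 bp. Peak summits of the *jmjd-5(zr1234)* replicates differed by a median of 26 bp at each temperature and the 4 libraries spanned a median of 54 bp, where the rule itself required the peaks to overlap. All 4 summits lay within 50 bp in 105 of the 235 regions, and the widest span was 1241 bp. The nearest N2 region at 20°C was a median of 1032 bp away, and 77 regions (32.8%) had one within 500 bp. On X, where N2 had only 214 regions, 14 of 32 gained regions (43.8%) lay over 5 kb from any N2 region at 20°C, and on the autosomes, with 11048 N2 regions, 17.2% did. Regions gained at 20°C only had 52% on X and 16.8% on the autosomes that far away. On the autosomes 26.1% of gained regions lay in the middle of the 3 equal parts of the chromosome, against 15.5% of shared regions. The middle part held 24.5% of N2-only regions and 25.9% of regions gained at 20°C only, so this place was common to all sets of differing regions.

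The highest gained region, by its lowest fold over the 4 *jmjd-5(zr1234)* libraries, was on chromosome I at 6003586 to 6003862, with folds of 5.81 and 6.12 at 20°C and 5.20 and 5.40 at 25°C. In N2 a peak of 4.48 was listed in replicate 2 at 20°C alone. The region on chromosome II at 5369779 to 5370075 had 5.88, 5.52, 4.97 and 5.61 in *jmjd-5(zr1234)*, and 5.92 in replicate 2 at 20°C and 5.39 in replicate 1 at 25°C of N2. It had no peak in the other N2 libraries. The other 8 of the top 10 had a lowest fold from 4.45 to 5.10, and every one of the 10 carried a peak in 1 or 2 N2 libraries. They were on chromosome II at 1923702 to 1923967, on III at 77258 to 77718, 2377157 to 2377401 and 2512583 to 2512858, on IV at 1957532 to 1957798 and 12147542 to 12147793, on V at 12274694 to 12274938, and the X region above. At the other end, the region on II at 875644 to 876112 had the lowest −log10 p, 10.03 in *jmjd-5(zr1234)* replicate 2 at 20°C, and a fold there of 2.34. Coordinates are those of the lists (ce10 in the submitters' notes), and no gene was assigned to them, since an annotation of that build was not used here.

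The most regions in a row lay on chromosome V. With neighbours within 10 kb counted together, 179 gained regions stood alone and 23 pairs, 2 groups of 3 and 1 group of 4 were found. The group of 4 was on V from 2482074 to 2494762 and a group of 3 on V from 2374992 to 2382760. In *jmjd-5(zr1234)*, these 7 regions had folds from 2.45 to 4.27, and 5 of the 7 had no peak in any N2 library. The remaining group of 3, on I from 13603200 to 13609786, had folds from 2.69 to 6.02, and each of its regions had a peak in 1 N2 library.

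Around these 7 regions the *jmjd-5(zr1234)* lists held more peaks of both marks over a long stretch. The window of 240 kb on V from 2340001 to 2580000 was set after the values had been seen. It held 29 and 28 H3K36me2 peaks in *jmjd-5(zr1234)* and 21 and 20 in N2 at 20°C, and at 25°C 28 and 28 in *jmjd-5(zr1234)* and 18 and 19 in N2. H3K27me3 peaks numbered 157 and 151 in *jmjd-5(zr1234)*, against 102 and 92 in N2 at 20°C, and 153 and 142 in *jmjd-5(zr1234)*, against 95 and 99 in N2 at 25°C. In neither mark did libraries of the strains overlap, and in the 240 kb on the left and on the right H3K27me3 counts were 81 to 92 in *jmjd-5(zr1234)* and 77 to 91 in N2. H3K36me2 counts there were 4 to 7 in *jmjd-5(zr1234)* and 1 to 4 in N2 on the left, and 34 to 36 in *jmjd-5(zr1234)* and 35 to 38 in N2 on the right. No N2 region of the stretch lacked a *jmjd-5(zr1234)* counterpart (0 of 18 at 20°C and 0 of 15 at 25°C), while 11 of 28 and 12 of 27 *jmjd-5(zr1234)* regions lacked an N2 one.

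**Figure D4:**
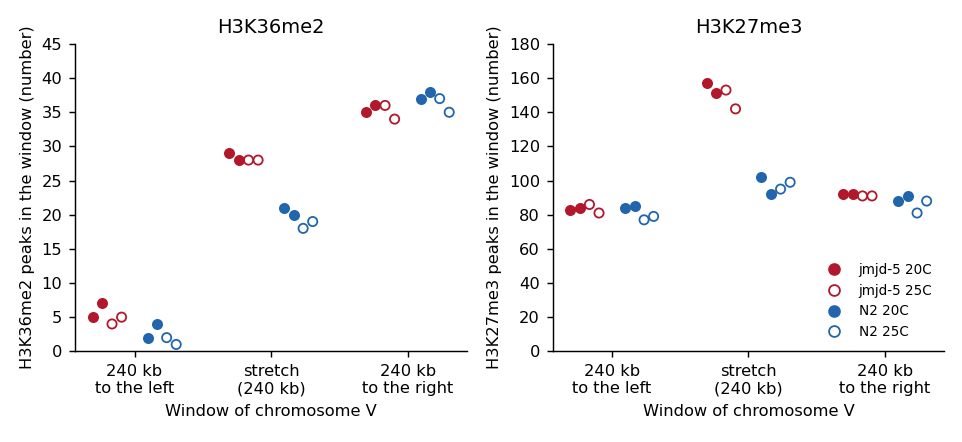
Number of H3K36me2 peaks (left panel) and H3K27me3 peaks (right panel) per library in the 240 kb stretch of chromosome V that holds 7 gained regions and in the 240 kb on each side; filled points are 20°C and open points 25°C. In the stretch the *jmjd-5(zr1234)* libraries have 28 to 29 H3K36me2 and 142 to 157 H3K27me3 peaks, all above the N2 libraries with 18 to 21 and 92 to 102.

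In this stretch the *jmjd-5(zr1234)* peaks had a higher −log10 p together with a lower fold. For H3K36me2 at 20°C the median −log10 p was 42.4 and 45.9 in *jmjd-5(zr1234)* and 22.1 and 22.9 in N2, whereas the median fold was 3.57 and 3.64 in *jmjd-5(zr1234)* and 4.65 and 4.85 in N2. For H3K27me3 at 20°C the median −log10 p was 39.4 and 39.2 in *jmjd-5(zr1234)* and 24.4 and 22.2 in N2, and the median fold 2.96 and 2.94 in *jmjd-5(zr1234)* and 3.74 and 3.51 in N2. Both marks thus parted in the same manner. The series holds a single control (input) library for each strain and temperature. Marks and replicates called against the same control are not independent readings of this shift. Over bins of 100 kb with at least 5 regions common to the strains, the log2 ratio of −log10 p (*jmjd-5(zr1234)* over N2) less that of fold, centred on all regions, was 1.39 to 1.42 in the 2 bins of the stretch for H3K36me2 at 20°C, and -0.24 to 0.19 in the other bins of 517. For H3K27me3 at 20°C it was 1.07 to 1.29 in 3 bins of the stretch and -0.68 to 0.28 in the other bins of 837. At 25°C the bins of the stretch likewise stood above all others, with 1.29 to 1.47 against at most 0.26 for H3K36me2, and 0.59 to 1.13 against at most 0.30 for H3K27me3. Read coverage of the ChIP and control libraries was not used here, and what part this shift had in the 7 gains was not tested. Without the stretch there were 228 gained regions, 38 of them without any N2 peak, and 14.0% were on X.

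H3K36me3, the trimethylated form that follows transcription, lay on somewhat fewer gained than shared regions. At 25°C, 93 of 235 gained regions (39.6%) had an H3K36me3 peak in each *jmjd-5(zr1234)* library, and 87 (37.0%) and 86 (36.6%) had one in the N2 libraries. Of shared regions 49.6% and 49.2% had one in *jmjd-5(zr1234)* and 51.7% and 50.6% in N2. Gained regions were lower in 4 of 4 libraries, with a mean difference of -12.1 percentage points (exact two-sided sign-flip permutation test over libraries, p = 0.125, the smallest it allows, Benjamini-Hochberg adjusted p = 0.25 over 10 tests). All libraries were read at the same regions, so they are repeated readings of 1 difference between these sets. Gained regions were narrower, and when the midpoint of the region had to lie in the H3K36me3 peak the difference was -6.18 points. On X alone, gained regions had 43.8% and 40.6% in *jmjd-5(zr1234)*, above the 38.9% and 37.0% of shared X regions. In N2 they had 37.5% and 31.25%, below the 38.9% and 35.2% of shared X regions. Over all chromosomes, regions that were N2-only had 32.4% and 33.8% in *jmjd-5(zr1234)* and 34.3% and 33.3% in N2.

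At gained regions, H3K36me3 peaks were 2.77 percentage points more frequent in *jmjd-5(zr1234)* than in N2, with 39.6% ± 0 against 36.8% ± 0.301 (SD, n = 2). At shared regions the difference was -1.72 points. At gained regions the difference was 0.41 points with the 10000 strongest peaks of each list, and the libraries then overlapped (exact p = 1). With the lists as deposited they did not overlap in either set, but with 2 libraries a strain the exact permutation test has no smaller p than the one found (p = 0.33, adjusted p = 0.417). The strain difference at gained regions less that at shared regions was 4.48 points, with the same p. Region by region, 74 of the 235 gained regions had H3K36me3 in all 4 libraries and 129 in none. In 6 it was present in both *jmjd-5(zr1234)* libraries and neither N2 library, and in 0 the other way round. Among the 7372 shared regions 46 had it in *jmjd-5(zr1234)* alone and 114 in N2 alone. One of the 6, named after its values were seen, was on V at 11557132 to 11557402, with H3K36me3 folds of 4.34 and 4.06 in *jmjd-5(zr1234)* and no H3K36me2 or H3K36me3 peak in any N2 library.

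H3K27me3 peaks were more frequent at gained than at shared regions. At 20°C, 9.36% and 10.6% of gained regions had one in *jmjd-5(zr1234)*, and 14.9% and 14.5% in N2. At 25°C the values were 4.68% and 6.81% in *jmjd-5(zr1234)* and 6.38% in each N2 library. Shared regions had 3.91% and 4.41% in *jmjd-5(zr1234)* and 5.48% and 4.42% in N2 at 20°C, and 2.63% to 3.24% in the 4 libraries at 25°C. Over all chromosomes, gained regions had the larger share in 8 of 8 libraries, by 5.48 percentage points on average. The exact two-sided sign-flip permutation test over libraries gave its smallest possible p (p = 0.0078, adjusted p = 0.0781 over 10 tests), but the 8 libraries were again read at the same regions, and this p is no measure of how the region sets would vary. On X alone the reverse held in all 8 libraries, with 0 or 1 of 32 gained regions against 8.33% to 15.7% of shared ones. Over all chromosomes, other sets of differing or weak regions also stood above all shared regions. Regions gained at 20°C only had 9.29% to 11.1% at 20°C and 5.95% to 7.72% at 25°C, N2-only regions 7.25% to 10.1% and 5.80% to 7.73%, and shared regions with a weakest −log10 p under 20 had 5.81% to 8.12% and 4.27% to 5.0%.

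At 20°C fewer gained regions carried H3K27me3 in the mutant. The share was 10.0% ± 0.903 in *jmjd-5(zr1234)* and 14.7% ± 0.301 in N2 (SD, n = 2), a difference of -4.68 percentage points without overlap between the libraries (exact permutation test, p = 0.33, the smallest possible). At 25°C it was 5.74% ± 1.5 in *jmjd-5(zr1234)* and 6.38% ± 0 in N2, and the libraries overlapped. Over both temperatures the mean difference of -2.66 points did not pass (p = 0.167 in an exact permutation test that kept temperatures apart, adjusted p = 0.278), nor did its difference from that of shared regions (-2.30 points, p = 0.111, adjusted p = 0.25, by the same exact test). Shared regions differed by -0.36 points over both temperatures (exact p = 0.389) and N2-only regions by 0.12 (exact p = 1). Gained regions carried H3K27me3 less often at 25°C than at 20°C in each strain, with a mean difference of -6.28 points (exact permutation test within strains, p = 0.056, the smallest it allows, adjusted p = 0.185). At shared regions this difference was -1.65 points (exact p = 0.056).

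**Figure D5:**
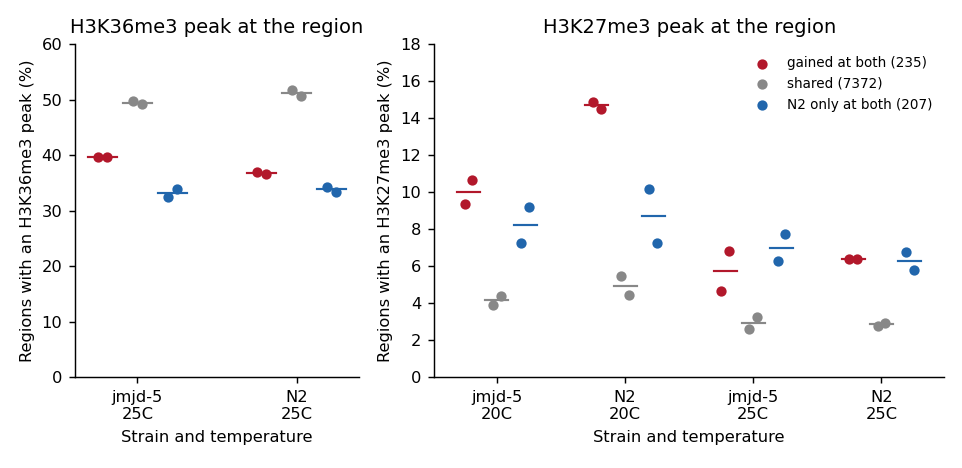
Percent of regions (vertical axes) with an H3K36me3 peak (left panel, 25°C) or an H3K27me3 peak (right panel, 20°C and 25°C), 1 point a library and a line for the mean of 2, for gained, shared and N2-only regions. Over all chromosomes, gained regions lie below shared ones for H3K36me3 and above them for H3K27me3 in every library. Their H3K27me3 share at 20°C is 10.0% in *jmjd-5(zr1234)* and 14.7% in N2.

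Single regions show what the H3K27me3 difference at 20°C consists of. In 0 of the 235 gained regions did both *jmjd-5(zr1234)* libraries and neither N2 library have an H3K27me3 peak at 20°C. In 9 the reverse held, and in 19 all 4 libraries had one. Among the 7372 shared regions 20 had it in *jmjd-5(zr1234)* alone and 45 in N2 alone at 20°C. At 25°C the pattern was nearly gone, with 0 gained regions in *jmjd-5(zr1234)* alone and 1 in N2 alone. Shared regions went the other way at 25°C, with 26 in *jmjd-5(zr1234)* alone and 18 in N2 alone. The N2 peaks of 20°C at the 9 regions had folds from 2.25 to 4.23. The median over all gained regions with an N2 peak at 20°C was 3.08 and 2.78. Of the 9 regions, 2 lay near each other on chromosome V and the other 7 elsewhere. Between those 2, the region on V at 17641344 to 17641738, which had the highest weakest −log10 p of all gained regions (31.5), had *jmjd-5(zr1234)* H3K36me2 folds of 4.57 and 5.11 at 20°C, and of 4.72 and 4.37 at 25°C, and no N2 peak. Its H3K27me3 peaks at 20°C had folds of 3.46 and 2.90 in *jmjd-5(zr1234)* and 4.56 and 4.09 in N2. At 25°C, *jmjd-5(zr1234)* had a peak of 2.22 in replicate 2 and none in replicate 1, and N2 had 3.69 and 3.75. In each *jmjd-5(zr1234)* library the H3K27me3 peak was thus absent or of lower fold than in both N2 libraries of its temperature. A lower fold was not particular to this region. At shared regions the median H3K27me3 folds were 2.58 and 2.57 in *jmjd-5(zr1234)* and 2.78 and 2.62 in N2 at 20°C. At 25°C they were 2.31 and 2.41 in *jmjd-5(zr1234)* and 2.50 and 2.47 in N2.

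The first of the 2, on V at 17654035 to 17654535, a gained region named after its values were seen had *jmjd-5(zr1234)* H3K36me2 folds of 4.38 and 3.78 at 20°C, and of 4.07 and 3.91 at 25°C, and no N2 peak. H3K27me3 was listed there in N2 at 20°C alone, with 3.28 and 2.77. The other of the 2, at 17537620 to 17537932, also named afterwards, carried H3K36me2 in all *jmjd-5(zr1234)* libraries (2.91 to 3.92) and in N2 replicate 2 at 25°C (3.06). H3K27me3 had no peak there in the 4 *jmjd-5(zr1234)* libraries, and folds of 4.23 and 3.11 at 20°C and of 2.12 in replicate 1 at 25°C in N2. Its H3K36me3 folds were 5.64 and 5.58 in *jmjd-5(zr1234)* and 4.51 and 3.93 in N2. Further right on V, the gained region at 18720069 to 18720482, named afterwards as well, had H3K27me3 in all 8 libraries (2.95 to 4.06 at 20°C and 1.93 to 2.10 at 25°C over both strains). No spike-in scaling went into the folds, and these values place peaks and do not measure levels across libraries.

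Taking each mark in any library, 108 of the 235 gained regions (46.0%) had neither H3K36me3 nor H3K27me3, 88 had H3K36me3 only, 21 H3K27me3 only and 18 both. On X these classes held 16, 15, 1 and 0 regions. The 43 gained regions without any N2 H3K36me2 peak, the strictest reading of a gain, were spread over all chromosomes, with 11 on V, of which 5 lay in the stretch described above. Their median width was 271 bp, and 14 of the 40 autosomal ones lay in the middle part of their chromosome. An H3K27me3 peak in any library was found at 11 of the 43 (25.6%), against 28 of the other 192 (14.6%). An H3K36me3 peak was found at 19 (44.2%) and 87 (45.3%). These shares come from 1 set of regions, and the differences were not tested.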

How the data were processed

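ChIP libraries of *jmjd-5(zr1234)* and N2 young adults were compared through their peak lists (8 of H3K36me2, 4 of H3K36me3 and 8 of H3K27me3). The authors aligned reads with Bowtie, removed multiply mapped reads and duplicates, and called peaks per library with MACS2 on ce10, as named in the submitters' notes. The deposited lists give each peak's position, its fold enrichment (a ratio to the control) and its −log10 p, with 10 as the lowest value of the last. The series holds a single control (input) library for each strain and temperature, without a replicate. No spike-in factor was applied, and depth is unknown. Gene counts and the authors' tables of called genes (fold changes and p-values) were not used, since genes could not be joined to peaks without an annotation of ce10.

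Peaks of replicates were merged, and an overlap of 1 bp counted. Where a region overlapped several peaks of a library, the highest fold was taken. Libraries were the units of exact permutation tests. Those between strains or temperatures measure the spread between replicates that nothing in the labels says came from separate cultures. The sign-flip tests of gained against shared regions measure only how far libraries read at the same regions agree on the sign of the difference. The 10 tests were adjusted by Benjamini-Hochberg. Regions named are the 10 with the highest lowest fold over the *jmjd-5(zr1234)* libraries, the highest of each chromosome, the 3 longest runs and those with the highest and lowest weakest −log10 p. The members and lists were chosen with earlier results of these data known. Alternatives were other thresholds, list lengths, overlaps and replicate rules, and leaving out each library. Python 3.11.15, NumPy 2.4.6 and SciPy 1.17.1 were used, and the rule was tested on simulated peak lists.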

Additional observations from a re-analysis of the deposited data

How the results depend on the processing

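The number of gained regions depended most on how replicates entered the rule. It was 43 when a peak of either N2 replicate counted as an N2 region and 907 when a peak of either *jmjd-5(zr1234)* replicate did (306 of these without any N2 peak). It was 146 with a −log10 p of at least 20, and 154 when no N2 region was allowed within 500 bp. Leaving out 1 H3K36me2 library gave 149 (without N2 replicate 2 at 20°C) to 363 regions (without *jmjd-5(zr1234)* replicate 2 at 25°C), and 43 to 86 without any N2 peak. Those without any N2 peak numbered 74 and 75 when leaving out *jmjd-5(zr1234)* replicate 1 at 20°C or at 25°C. The share on X was 7.53% with a −log10 p of at least 20, 8.71% with the 10000 strongest peaks of each list, 6.98% with peaks of either N2 replicate, 20.1% with the 500 bp margin, and 10.9% to 16.6% with 1 library left out. The cause was not tested. The mirrored N2-only set had 4 of 188 regions on X with a −log10 p of at least 20, 5 of 220 with the 10000 strongest peaks and 3 of 139 with the 500 bp margin.

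The strain differences in H3K36me3 (0.41 to 8.14 percentage points) and H3K27me3 (-3.73 to -1.03), and the differences between gained and shared regions in H3K36me3 (-16.8 to -6.15) and H3K27me3 (2.73 to 9.81), kept their direction under every alternative run. X alone was not among the alternatives. There the difference between gained and shared regions was reversed for H3K27me3 in every library, and for H3K36me3 in the *jmjd-5(zr1234)* libraries. The p-values of all these differences say nothing of stability. The strain tests and the H3K36me3 test cannot go below 0.05. The p of gained against shared regions in H3K27me3 was the smallest possible in every setting. The strain difference in H3K36me3 was 0.41 points (exact p = 1) with the 10000 strongest peaks, and the gained against shared difference in H3K36me3 was -6.18 points with the midpoint of the region in the peak. Leaving out 1 library gave 1.49 to 5.10 and -3.36 to -1.45 points for the strain differences in H3K36me3 and H3K27me3, and -16.8 to -7.04 and 4.39 to 6.58 points between gained and shared regions. With a replicate block these strain differences were 2.77 (exact p = 0.5) and -2.66 points (exact p = 0.25). The labels do not say whether replicate numbers pair the samples. Differences between replicates correlated by -0.03 to 0.13 between the strains over regions, which cannot settle it. Leaving out the stretch of chromosome V was chosen after seeing the data and moved none of the calls. The alternatives planned for RNA of genes holding a gained region were not run. Groups of 2 libraries, an unknown depth and lists that stop at a −log10 p of 10 limit all values.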
